A study of Mus musculus with 15 samples.

Results

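Mouse mitochondrial DNA carries 37 genes, and every gene named with the lower-case prefix mt- in the deposited tables was taken, which gave those 37 of 56748 gene identifiers. They comprise 13 protein genes, 2 rRNA genes and 22 tRNA genes. RNA was sequenced from the tibialis anterior (TA) muscle of male C57BL/6 mice aged 8 weeks. Regenerating muscle had received 50 µL of cardiotoxin (CTX, a snake toxin that kills muscle fibers) at 0.1 mg/mL in 1 limb, with meloxicam, and was taken 4 days (Proliferation Stage), 7 days (Differentiation Stage) or 14 days (Maturation Stage) later. The files hold 4 libraries for each stage and 3 Uninjected libraries. In the study's methods the Uninjected controls are separate mice given no CTX, used in most of its comparisons. The second limb of injected mice was also left without CTX, and the labels of the 3 Uninjected libraries say only that no CTX was injected. All groups drank heavy water as an isotope label. RNA was extracted from isolated fibers, to which other cells were still attached, although the labels name the cell type as bulk tissue. Magnetic depletion of CD45+ leukocytes is described for the protein, mitochondria and DNA preparations, and it is not stated whether the RNA aliquots were depleted.

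Mitochondrial DNA is transcribed from both strands into long precursors that run through many genes at once. The tRNAs sit between the other genes, and cutting them out releases the mRNAs and rRNAs. The proteins made from these mRNAs are core subunits of the respiratory chain and of ATP synthase, which muscle fibers hold in large amounts, while all other subunits and the whole machinery that copies and reads mitochondrial DNA are encoded in the nucleus.

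Levels are FPKM, that is fragments divided by full gene length and by a scale set for each library. They make no allowance for fragment length, so short genes cannot be set directly against long ones. The fragments behind them were recovered from the steps in which FPKM values rise, and all 178 member values below 50 fragments came out whole within 0.01 of a fragment. Libraries held 1471308 to 7208699 fragments in genes. The kit selected RNA by its poly(A) tail and is not stated to keep the strand. It also selected fragments of 150 to 200 bp, whereas the tRNA genes are 59 to 75 bases long. Among the 12 adult fiber markers, each was above 0 in every library. Their summed FPKM was 69584, 108700 and 85792 in the Uninjected libraries but 5236, 65354, 22654 and 40813 in the Proliferation Stage, where the 12 leukocyte markers summed to 1383 to 3302 against 6.47 to 18.6 in the Uninjected group. The 8 fibroblast markers summed to 397 to 1502 there against 45.2 to 127.5. The 6 endothelial markers were lower, at 35.3 to 43.3 in the Proliferation Stage against 57.6 to 99.3 in the Uninjected group. Itgam, a marker of myeloid cells, was at 0 in all Uninjected libraries. In such bulk RNA, fewer fibers and less mitochondrial RNA per fiber cannot be told apart.

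The protein genes held most of the mitochondrial signal, and their part of the library was lower at every stage than in the Uninjected group on average. They took 35.1%, 23.1% and 31.7% of all FPKM in the 3 Uninjected libraries. In the Proliferation Stage they took 4.72%, 18.7%, 8.66% and 17.8%, with replicates 1 and 3 far below replicates 2 and 4. The Differentiation Stage libraries held 19.6%, 11.2%, 14.9% and 15.5%, and the Maturation Stage libraries held 19.99%, 21.4%, 17.0% and 25.3%. Every Proliferation and Differentiation Stage library lay below every Uninjected library, and the Maturation Stage overlapped the Uninjected group through replicate 4. Proliferation Stage replicates 1 and 3, the lowest in mitochondrial share, were also the lowest in fiber markers and the highest in leukocyte markers of their group. In the Uninjected group replicate 1 had the highest share with the lowest fiber sum. Replicate 2 had the lowest share there with the highest fiber sum. Maturation Stage replicate 4 likewise had the highest share with the lowest fiber sum of its group. Fiber sums of that stage were 91030 to 110820 FPKM. Its leukocyte markers summed to 21.1 to 66.9 FPKM, above the 6.47 to 18.6 FPKM of the Uninjected group. The fibroblast markers summed to 148 to 345 FPKM, above the Uninjected 45.2 to 127.5 FPKM. Endothelial sums, at 61.3 to 99.55 FPKM, overlapped the Uninjected 57.6 to 99.3 FPKM. The part of the markers in the result was not tested.

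The rRNA genes took 0.852%, 0.489% and 1.36% of FPKM in the Uninjected libraries, against 0.118%, 0.485%, 0.185% and 0.293% in the Proliferation Stage. Their share was 0.773%, 0.536%, 0.661% and 0.739% in the Differentiation Stage and 0.639% to 0.881% in the Maturation Stage, so these later libraries lay inside the Uninjected range. The tRNA genes took 2.04%, 1.03% and 1.78% in the Uninjected libraries and 0.250% to 0.786% in the Proliferation Stage, with no overlap. Counted as fragments instead, all 37 genes together held 19.0%, 11.9% and 17.4% of the fragments in genes in the Uninjected libraries, and 1.91%, 9.56%, 3.84% and 8.31% in the Proliferation Stage. No test was run on these sums, which are a description.

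**Figure D1:**
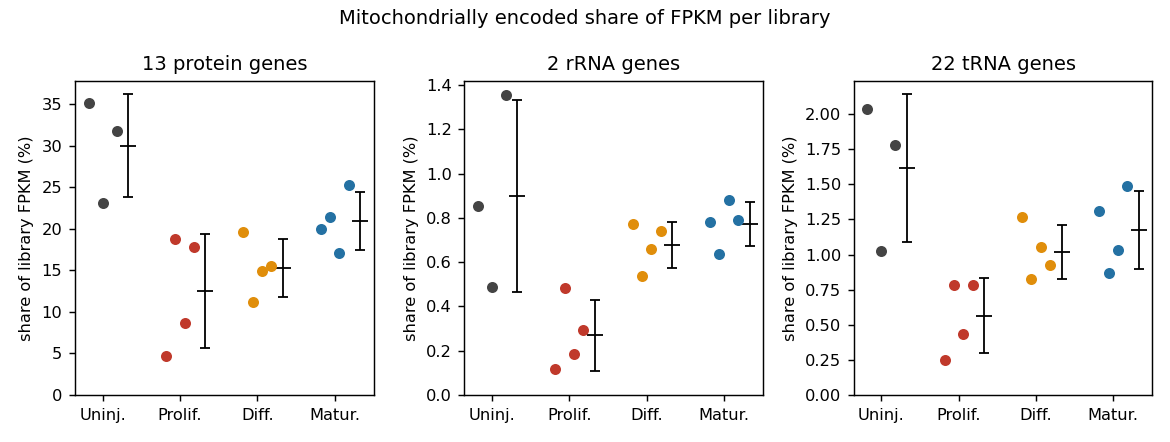
Share of each library's total FPKM, in percent, taken by the 13 protein genes, the 2 rRNA genes and the 22 tRNA genes; each point is a library and the bars are the group mean ± SD (Uninj., Uninjected, n = 3; Prolif., Proliferation Stage, Diff., Differentiation Stage, and Matur., Maturation Stage, n = 4 each). The protein share of the Proliferation Stage ran from 4.72% to 18.7%, below the lowest Uninjected library at 23.1%, while the rRNA share of the Differentiation Stage lay within the Uninjected range.

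Within the Uninjected group the order of mean levels was led by mt-Co1, which encodes the catalytic core of cytochrome c oxidase (complex IV), at 40211 ± 9108 FPKM (SD, n = 3). It was followed by mt-Cytb, the only mitochondrially encoded subunit of complex III, at 26333 ± 5395 FPKM. Next came the complex I subunits mt-Nd1 at 22947 ± 3789 and mt-Nd2 at 18540.3 ± 3822 FPKM, then mt-Nd4 at 11173 ± 2291, mt-Nd5 at 10424 ± 1823 and mt-Nd6 at 10201 ± 1879 FPKM. The neighbours mt-Cytb and mt-Nd1 differed by less than either SD, as did mt-Nd4, mt-Nd5 and mt-Nd6 among themselves, while mt-Nd1 and mt-Nd2 lay slightly further apart than their SDs. The other protein genes were far lower, with the ATP synthase subunits mt-Atp6 at 1106 ± 594 and mt-Atp8 at 62.8 ± 35.4 FPKM, mt-Co2 at 1049 ± 278, mt-Co3 at 862 ± 479.8, mt-Nd4l at 723 ± 348 and mt-Nd3 at 212 ± 81.2 FPKM. Since mt-Atp8 and mt-Atp6 overlap by 43 bases, mt-Nd4l and mt-Nd4 by 7, and mt-Nd5 and mt-Nd6 (on opposite strands) by 14, fragments there can belong to either gene of a pair.

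All 6 of these low protein genes share sequence with near-identical copies in the nuclear genome, mt-Atp8 over part of its length only. At 204 bases mt-Atp8 is also barely longer than the selected fragments, so its FPKM is hard to set against that of longer genes. A stretch of mouse chromosome 1, chr1:24611535-24616197 on the minus strand (GRCm38, annotation GENCODE M21), holds 7 annotated pseudogenes side by side that match 8 of the protein genes at 99% identity or more. The match covers at least 98% of mt-Atp6, mt-Co2, mt-Co3, mt-Nd3 and mt-Nd4l, while it covers 63.6% of mt-Nd4, 31.3% of mt-Co1 and 21.1% of mt-Atp8. No close copy was found for mt-Nd1, mt-Nd2, mt-Nd5, mt-Nd6 or mt-Cytb. In all 15 libraries the lowest of these 5 genes without a copy stood above the highest of the 5 copied genes, by 3.30-fold to 12.9-fold (median 9.40). How fragments that fit 2 places were counted is not given in the sources used here, so the FPKM of the copied genes, and their order among the others, are uncertain.

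The starts of 2 such pairs are shown because they are what a fragment would have to tell apart. The sequences are from GENCODE M21 transcripts, printed 5′ to 3′ along the gene, and cover chrM:9459-9518 (plus strand) and chr1:24613060-24613119 (minus strand). Over these 60 bases mt-Nd3 and Gm28438 differ by T3C, counted from 1 at the start of the gene, with that base in capitals.
mt-Nd3: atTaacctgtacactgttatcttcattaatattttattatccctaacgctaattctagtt
Gm28438: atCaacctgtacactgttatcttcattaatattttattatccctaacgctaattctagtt
The first 60 bases of mt-Co2, chrM:7013-7072 on the plus strand, are the same letters as those of Gm28661 at chr1:24615506-24615565 on the minus strand, with the start codon in capitals.
mt-Co2 and Gm28661: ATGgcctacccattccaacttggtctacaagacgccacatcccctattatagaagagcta

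The pseudogenes carried FPKM of their own. Gm28661 was 847, 534 and 651 FPKM in the Uninjected libraries, near the 1367, 856 and 923 FPKM of mt-Co2 itself. Gm10925, the copy of mt-Atp6, was 940.3, 325 and 641 FPKM beside 1671, 487 and 1162 FPKM for the gene. In the Proliferation Stage Gm10925 was 24.7, 268, 45.2 and 163 FPKM and mt-Atp6 was 23.7, 531, 58.0 and 398 FPKM, so both were high and low in the same libraries. The fitted log2 difference was −2.79 ± 0.83 (SE) for Gm10925 and −2.90 ± 1.09 for mt-Atp6, with limma adjusted p of 0.0385 and 0.0752.

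**Figure D2:**
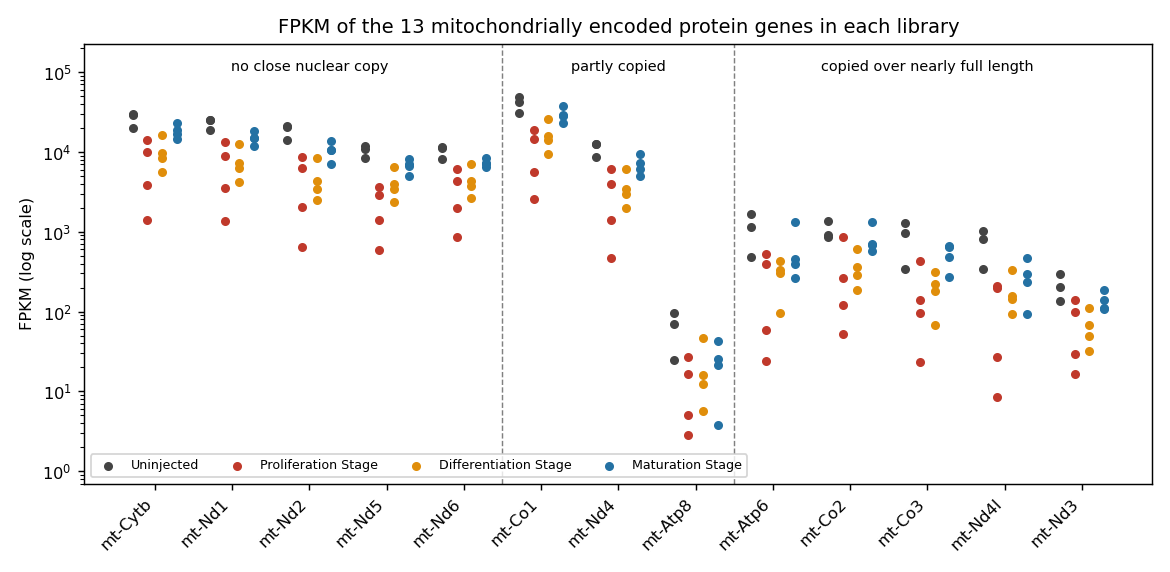
FPKM (log scale) of the 13 mitochondrially encoded protein genes in each of the 15 libraries, grouped by how much of the gene has a near-identical nuclear copy; each point is a library, coloured by group. The 5 genes without a close copy stand above the 5 copied genes in every library, and for most genes the Proliferation Stage points spread the widest.

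Which members were lower at 4 dpi was tested with limma on log2(FPKM + 0.5), where a gene is called at an adjusted p under 0.05. Fold changes on this scale understate the change of low genes. Of the 37 members, 31 passed the filter of 0.5 FPKM in 3 libraries, and 13 of these were called lower than in the Uninjected group and 0 higher, beside 9.05% of all tested genes called lower. The 13 were 3 protein genes (mt-Nd5, mt-Nd4l and mt-Atp8), both rRNA genes and 8 tRNA genes. All 31 fitted differences were below 0, with a median of −2.39 against 0.05 over all genes tested. Every Proliferation Stage library lay below every Uninjected library for 18 of the 31 members, beside 17.1% of all tested genes. The number called turned on single libraries, being 25 without Proliferation Stage replicate 2, 0 without Proliferation Stage replicate 3 or Uninjected replicate 1, 3 without Uninjected replicate 2 and 1 without Uninjected replicate 3. Without Proliferation Stage replicates 1 and 3 together it was 5.

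Levels of the protein genes were widely spread within the Proliferation Stage. mt-Co1 was 2543, 18826, 5539 and 14421 FPKM, against 48380.0, 30391 and 41862 FPKM in the Uninjected libraries. No library of the stage reached the Uninjected range. The log2 difference was −2.33 ± 0.98 with a limma adjusted p of 0.102, and the exact two-sided permutation p was 0.0286, the smallest that 35 divisions of 7 libraries can give. mt-Cytb was 1391, 14279, 3805 and 10054 FPKM against 29301, 20105 and 29592 FPKM, again without overlap and not called (−2.30 ± 0.99, limma adjusted p 0.106). mt-Nd1 was 1355, 13188, 3485 and 8813 FPKM against 25374, 18581 and 24886 FPKM, likewise not called (−2.23 ± 0.96, limma adjusted p 0.107).

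The protein genes called at 4 dpi were not those of highest level. mt-Nd5, a proton-pumping subunit of complex I, was 590.2, 2859.9, 1394 and 3609.6 FPKM against 12032, 8443 and 10797 FPKM. Its groups were separated by a wide gap (−2.59 ± 0.78, limma adjusted p 0.0387). mt-Atp8, which is needed to assemble ATP synthase, was 2.84, 16.4, 5.08 and 26.6 FPKM against 94.8, 24.8 and 68.9 FPKM, so its groups overlapped although it was called (−2.52 ± 0.76, limma adjusted p 0.0397). These 2 calls were lost in some of the alternatives, where the adjusted p ran from 0.00345 to 0.127 for mt-Nd5 and from 0.0231 to 0.185 for mt-Atp8. Among the 13 protein genes the groups did not overlap for 8, beside the same 17.1% of all tested genes. The 5 that overlapped were mt-Co2, mt-Co3, mt-Atp6, mt-Nd3 and mt-Atp8, which share sequence with the chromosome 1 copies, as do mt-Nd4l, mt-Nd4 and mt-Co1 among the 8 that did not overlap.

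Both rRNAs fell in the Proliferation Stage, as measured in RNA selected by its poly(A) tail. mt-Rnr1, the RNA of the small subunit of the mitochondrial ribosome, was 119, 1047, 248 and 415 FPKM against 1968, 1179.5 and 3649 FPKM. Replicate 2 came close to the lowest Uninjected library but stayed below it (−2.60 ± 0.78, limma adjusted p 0.0389). mt-Rnr2, the RNA of the large subunit, was 79.7, 823, 178 and 450.1 FPKM against 2032, 1157 and 3029 FPKM (−2.83 ± 0.82, limma adjusted p 0.0346). In both genes Proliferation Stage replicate 1 was the lowest of all 15 libraries. Both calls were lost in some alternatives, where the adjusted p ran from 0.00483 to 0.126 for mt-Rnr1 and from 0.00376 to 0.112 for mt-Rnr2.

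**Figure D3:**
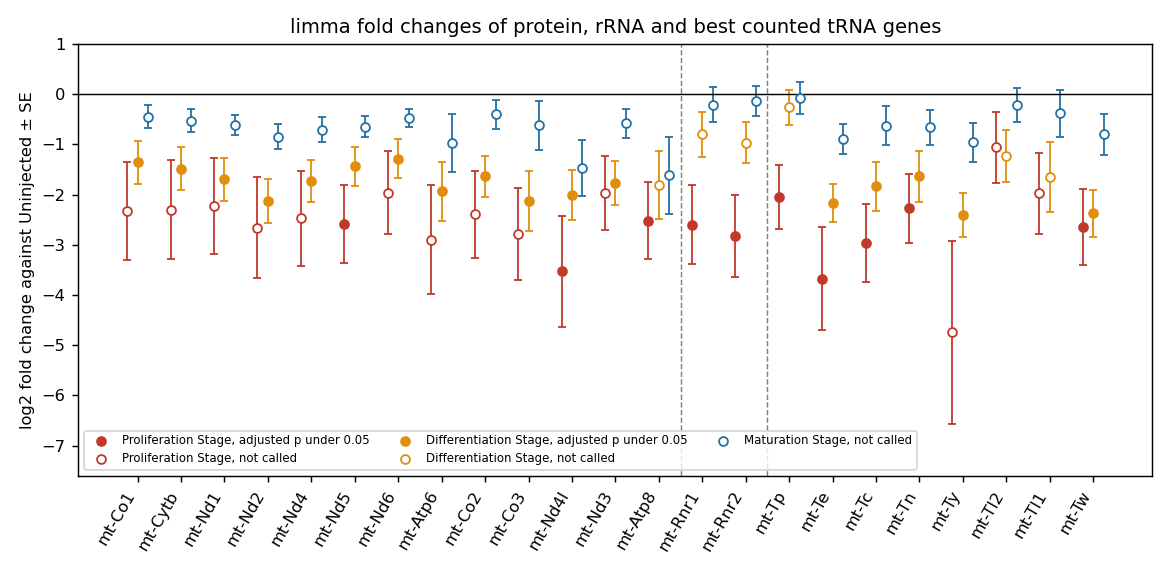
Difference from the Uninjected group on the log2(FPKM + 0.5) scale, ± SE from limma, for the 13 protein genes, the 2 rRNA genes and the 8 tRNA genes with most fragments, left to right between the dashed lines; filled points have an adjusted p under 0.05 and open points do not. The Differentiation Stage points lie nearer 0 than most Proliferation Stage points but have shorter error bars and more calls among protein genes, and no Maturation Stage point is called.

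At 7 dpi 12 of the 13 protein genes (all but mt-Atp8), neither rRNA and 6 tRNA genes were called lower, and 0 members were called higher. These are 18 of 31 members tested, beside 12.5% of all tested genes called lower. They leave out mt-Ti, which was at 0 in all 4 Differentiation Stage libraries and passed the filter through the Uninjected group alone, so that it had to differ. With it the count is 19 of 32. The median difference of the 31 was −1.64, against 0.06 over all genes. The order of the counts at 4 and 7 dpi (13 and 19) was not kept by every setting, being 24 and 5 in the fit of all 15 libraries and 20 and 19 by limma without trend and robust. The standard errors of the protein genes were 0.387 to 0.681 here and 0.731 to 1.10 in the Proliferation Stage. The groups did not overlap for 15 of the 31 members, beside 17.4% of all tested genes. The count of 19, mt-Ti included, fell to 10 without Differentiation Stage replicate 2 or 4, to 11 without Differentiation Stage replicate 3, and to 4 without Uninjected replicate 1 or 3. Both contrasts use the same 3 Uninjected libraries.

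Leukocyte and fibroblast markers also differed at 7 dpi. The fiber markers summed to 85190, 44262, 61658 and 38157 FPKM in the Differentiation Stage libraries, against 69584 to 108700 FPKM in the Uninjected group, and all 12 were above 0 in each library. The leukocyte markers summed to 89.0 to 1226 FPKM and the fibroblast markers to 146 to 2155 FPKM, with all 12 and all 8 above 0. The 6 endothelial markers summed to 87.8 to 134 FPKM and overlapped the Uninjected 57.6 to 99.3 FPKM. Replicate 1, the highest of its group in mitochondrial share, was the highest in fiber and endothelial markers and the lowest in leukocyte and fibroblast markers. The part of these lists in the differences at 7 dpi was not tested.

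All 7 complex I subunits, mt-Cytb and all 3 complex IV subunits fell in the Differentiation Stage. mt-Co1 was 26155, 9408, 15974 and 14288 FPKM, with the highest of these below the lowest Uninjected library (−1.36 ± 0.43, limma adjusted p 0.0433). mt-Nd2 was 8276, 2475, 4289 and 3455 FPKM against 20854, 14129 and 20638 FPKM. It had the lowest adjusted p of the protein genes (−2.13 ± 0.45, limma adjusted p 0.010), and over the alternatives that p stayed between 0.00118 and 0.0478. All other protein genes called here lost their call in some alternatives. The highest adjusted p there was 0.161 for mt-Co1, 0.209 for mt-Cytb, 0.141 for mt-Atp6 and 0.563 for mt-Nd6. mt-Nd6, the only protein gene on the minus strand, was 7002, 2624, 4285 and 3706 FPKM against 11106, 8040.4 and 11457 FPKM (−1.29 ± 0.39, limma adjusted p 0.0378). Without strand information its fragments cannot be told apart from those of the opposite transcript. Of the ATP synthase subunits, mt-Atp6 was called (−1.93 ± 0.59, limma adjusted p 0.0380), and mt-Atp8 was at 46.2, 5.60, 16.2 and 12.2 FPKM with an adjusted p of 0.0763 by limma.

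The rRNAs at 7 dpi overlapped the Uninjected group. mt-Rnr1 was 1846, 761, 1203 and 1120.3 FPKM (−0.80 ± 0.45, limma adjusted p 0.209). mt-Rnr2 was 1483, 638, 1032 and 959.5 FPKM (−0.97 ± 0.41, limma adjusted p 0.107). Differentiation Stage replicates 1 and 3 were above the lowest Uninjected library for mt-Rnr1, and replicate 1 was for mt-Rnr2.

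At 14 dpi none of the 32 members tested was called by limma. The unpaired equal-variance test of the study's methods, adjusted here over all tested genes, called 0. The study's own counts of changed genes used a cutoff on p with no adjustment named there. At an unadjusted p under 0.05 limma had 9 of the members, and the share of all genes at that cutoff was not counted. At the adjusted threshold 0% of all tested genes were called lower and 0.0245% higher. The tested members had a median difference of −0.62 against 0.00 over all genes, and 28 of the 32 were below 0. Every Maturation Stage library lay below every Uninjected library for 4 members, mt-Nd1, mt-Nd2, mt-Nd5 and mt-Te, beside 5.88% of all tested genes. mt-Nd2 was 10443, 10436, 7089.6 and 13584 FPKM (−0.85 ± 0.25, limma adjusted p 0.222), and its highest library was just below the Uninjected 14129 FPKM. mt-Co1 was 28969, 27940.1, 23073 and 37283 FPKM, and replicate 4 lay inside the Uninjected range (−0.45 ± 0.23, limma adjusted p 0.435). mt-Rnr1 was 1907, 1389.5, 1926 and 1905 FPKM and mt-Rnr2 was 1879.6, 1369.0, 1910.4 and 1899.9 FPKM, all within the Uninjected range of each gene.

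Between stages, members rose from 4 to 14 dpi. In the fit of all 15 libraries, where 34 members were tested, 17 were higher in the Maturation than in the Proliferation Stage and 0 lower, beside 13.3% of all tested genes called higher and 20.5% called lower. They were mt-Co1, mt-Co2, mt-Co3, mt-Cytb, mt-Nd5 and mt-Nd6, both rRNAs and 9 tRNAs. The rRNAs had the lowest adjusted p of these, with log2 differences of 2.39 ± 0.56 for mt-Rnr1 (limma adjusted p 0.00620) and 2.70 ± 0.58 for mt-Rnr2 (limma adjusted p 0.00405). The count was 8 without Proliferation Stage replicate 1, 6 without Proliferation Stage replicate 3 or Maturation Stage replicate 4, 10 without any other single Maturation Stage library, and 1 without Proliferation Stage replicates 1 and 3 together.

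The steps in between gave few calls. From the Proliferation to the Differentiation Stage limma called 0 of 34 members (background 1.13% called higher and 1.93% called lower). At an unadjusted p under 0.05 there were 5, and 31 of the 34 differences were above 0. The lowest adjusted p there was that of mt-Tp, whose difference was 1.78 ± 0.48 (limma adjusted p 0.0628). Without Proliferation Stage replicate 2 the count was 3 higher. From the Differentiation to the Maturation Stage 1 member, mt-Ti, was higher (background 4.71% called higher and 9.54% called lower), a gene of at most 9 fragments in a library that was at 0 throughout the Differentiation Stage. That call was absent when Differentiation Stage replicate 2 or 4, or Maturation Stage replicate 2, 3 or 4, was left out.

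The 22 tRNAs made up 3.80% to 6.60% of the mitochondrial FPKM of a library but 0.218% to 0.383% of its mitochondrial fragments, since FPKM divides by their short length. A library held 353 to 2476 tRNA fragments in all. mt-Tf and mt-Td were at 0 in all 15 libraries, and 8 of the 22 tRNAs had fewer than 10 fragments in every library. The 8 tRNAs on the minus strand of the mitochondrial reference carried 78.1% to 91.6% of tRNA FPKM, and 5 of them, mt-Tp, mt-Te, mt-Tc, mt-Tn and mt-Ty, had the highest mean levels of all tRNAs in the Uninjected group. The minus-strand portion was 78.1% to 81.3% in the Proliferation Stage, below the 84.0% to 91.6% of the other 11 libraries. Without strand information, fragments of a minus-strand tRNA and of the opposite transcript cannot be told apart. Mature tRNAs are also shorter than the selected fragments and carry no poly(A) tail. The values of tRNA genes here therefore cannot be read as levels of mature tRNA.

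The 4 best counted minus-strand tRNAs are printed here because the results on tRNAs turn on them. They are the GENCODE M21 gene sequences (GRCm38) read 5′ to 3′ on the minus strand, with the anticodon, found as the triplet between the arms of a stem of 5 paired bases, in capitals. mt-Tp (proline) lies at chrM:15356-15422 beyond mt-Cytb and mt-Tt, mt-Te (glutamate) at chrM:14071-14139 between mt-Nd6 and mt-Cytb, and mt-Tn (asparagine, chrM:5089-5159) and mt-Tc (cysteine, chrM:5192-5257) lie in the tRNA cluster between mt-Nd2 and mt-Co1.
mt-Tp: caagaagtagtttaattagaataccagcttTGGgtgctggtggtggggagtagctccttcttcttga
mt-Te: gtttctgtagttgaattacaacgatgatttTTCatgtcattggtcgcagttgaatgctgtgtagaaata
mt-Tc: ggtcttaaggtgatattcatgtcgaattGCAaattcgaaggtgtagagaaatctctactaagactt
mt-Tn: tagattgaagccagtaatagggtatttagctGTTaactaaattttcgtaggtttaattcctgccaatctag

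mt-Te, the glutamate tRNA next to mt-Nd6 and upstream of it on the same strand, was 2021, 1122 and 1696 FPKM in the Uninjected libraries. In the Proliferation Stage it was 17.9, 345, 83.4 and 420.2 FPKM, far below them in all 4 libraries (−3.68 ± 1.03, limma adjusted p 0.0315, and 0.0037 to 0.092 over the alternatives). In the Differentiation Stage it was 615, 233, 373 and 277 FPKM, with no overlap (−2.16 ± 0.38, limma adjusted p 0.00531). Over the alternatives its adjusted p at this stage ran from 0.000987 to 0.0619. In the Maturation Stage it was 1041, 808, 528 and 1112 FPKM, all below the lowest Uninjected library but not called (−0.90 ± 0.30, limma adjusted p 0.260).

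mt-Tp, the proline tRNA, lay within the Uninjected range in part at 7 dpi. It was 2812, 1774 and 2021 FPKM in the Uninjected libraries and 215, 1134, 419 and 737 FPKM in the Proliferation Stage, where it was called lower (−2.04 ± 0.64, limma adjusted p 0.0445). In the Differentiation Stage it was 2595, 1200.1, 2124 and 1581 FPKM, overlapping the Uninjected range (−0.26 ± 0.35, limma adjusted p 0.5998). The sign of this small difference turned in 3 of the rescalings. In the Maturation Stage it was 2560.3, 1265, 1759 and 3079 FPKM, on both sides of the Uninjected levels.

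mt-Tc and mt-Tn fell at both early stages. mt-Tc was 1558, 651 and 1958 FPKM in the Uninjected libraries, 43.9, 361, 139.5 and 301 FPKM in the Proliferation Stage and 704, 268, 306 and 264 FPKM in the Differentiation Stage. Its groups did not overlap at 4 dpi, and at 7 dpi replicate 1 reached above the lowest Uninjected library (−2.96 ± 0.78 and −1.84 ± 0.48, limma adjusted p 0.0257 and 0.0226). mt-Tn was 713, 427 and 1317 FPKM in the Uninjected libraries, 53.1, 328, 131 and 231 FPKM at 4 dpi and 503, 153, 267 and 152 FPKM at 7 dpi (−2.28 ± 0.68 and −1.64 ± 0.52, limma adjusted p 0.0389 and 0.0427).

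Tyrosine tRNA mt-Ty was 1031, 347 and 819.7 FPKM in the Uninjected libraries and 0, 174, 34.4 and 123 FPKM at 4 dpi. The library at 0 held no mt-Ty fragment at all and widened its error (−4.75 ± 1.82, limma adjusted p 0.0790). At 7 dpi it was 201, 92.1, 143 and 93.0 FPKM and was called (−2.40 ± 0.43, limma adjusted p 0.00571).

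Of the plus-strand tRNAs, 14 in number, mt-Tl2, mt-Tl1 and mt-Tw had the highest Uninjected means at 289 ± 111, 252 ± 149 and 160.2 ± 117 FPKM. mt-Tw, the tryptophan tRNA, fell at both 4 dpi (−2.65 ± 0.75, limma adjusted p 0.0333) and 7 dpi (−2.38 ± 0.46, limma adjusted p 0.00773). mt-Tl1 and mt-Tl2, the leucine tRNAs, were not called at any stage. mt-Tg, mt-Th and mt-Ti were also called lower at 4 dpi, and mt-Tq at 7 dpi, on at most 37 fragments summed over either group. The isoleucine tRNA mt-Ti had 0 fragments in the 4 Differentiation Stage libraries and 12 in the 3 Uninjected ones. With a floor of 3 fragments over the group it was at least 8.84-fold lower there, and its call is not counted as support. mt-Tv, mt-Ts1 and mt-Tk were too low for testing in any stage against the Uninjected group, and mt-Tt could be tested at 7 and 14 dpi only.

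**Figure D4:**
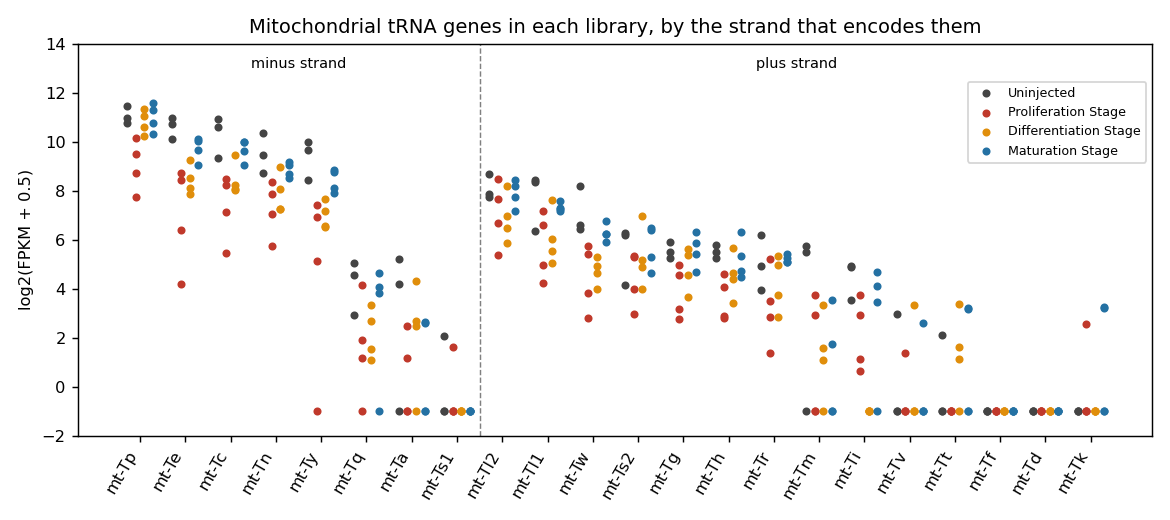
Level of each of the 22 mitochondrial tRNA genes, as log2(FPKM + 0.5), in the 15 libraries, with minus-strand genes left and plus-strand genes right of the dashed line; each point is a library, coloured by group, and points at −1 are libraries at 0 FPKM. The 5 highest tRNAs are all on the minus strand, mt-Tp in the Differentiation Stage overlaps the Uninjected group, and mt-Tf and mt-Td are at 0 throughout.

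Ratios inside a library do not depend on how the library was scaled. Those given here were chosen after the values were seen and are given with no test. As with the minus-strand tRNAs, fragments of mt-Nd6 and of the opposite transcript cannot be told apart without strand information. Ratios that hold mt-Nd6 therefore cannot be read as one strand against the other. mt-Nd6, on the minus strand, was 92.3%, 95.2% and 106% of the plus-strand mt-Nd5 in the Uninjected libraries. It was 144%, 213%, 143% and 119.9% in the Proliferation Stage, above all Uninjected libraries, then 107% to 109.9% in the Differentiation Stage, also above them, and 102% to 132% in the Maturation Stage. mt-Tp was 6.83% to 9.60% of mt-Cytb, the nearest protein gene, on the other strand, in the Uninjected libraries and 15.9%, 21.7%, 21.9% and 18.7% in the Differentiation Stage, the highest 4 values of the 15. It was 15.5%, 7.94%, 11.02% and 7.33% in the Proliferation Stage and 7.51% to 13.8% in the Maturation Stage.

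mt-Te was 18.2%, 13.9% and 14.8% of mt-Nd6 in the Uninjected libraries but 2.10%, 5.66%, 4.20% and 9.71% in the Proliferation Stage and 7.47% to 8.89% in the Differentiation Stage. In the Maturation Stage it was 8.05% to 14.3%. mt-Rnr1 was 7.76%, 6.35% and 14.7% of mt-Nd1 in the Uninjected libraries, 4.71% to 8.79% in the Proliferation Stage and 14.6%, 18.1%, 16.7% and 17.8% in the Differentiation Stage. Only Differentiation Stage replicate 1 overlapped the Uninjected libraries in that ratio, and the Maturation Stage libraries spread from 9.19% to 16.4%.

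**Figure D5:**
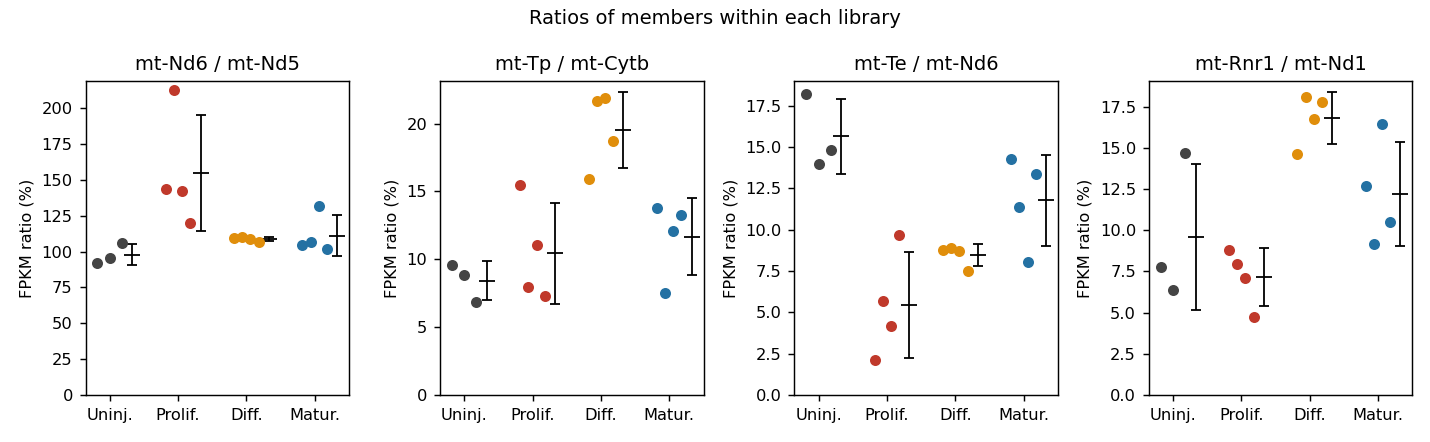
Ratio of the FPKM of a member to that of another member in the same library, in percent; each point is a library and the bars are the group mean ± SD (Uninj., Uninjected, n = 3; Prolif., Proliferation Stage, Diff., Differentiation Stage, and Matur., Maturation Stage, n = 4 each). All Proliferation Stage libraries lie above the Uninjected ones for mt-Nd6 over mt-Nd5, and all Differentiation Stage libraries lie above them for mt-Tp over mt-Cytb.

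The nuclear genes that copy, read and translate mitochondrial DNA had median differences nearer 0 than the members. In a list of nuclear genes for mitochondrial gene expression, 5 of 65 tested were called lower and 2 higher at 4 dpi, beside 9.05% of all tested genes called lower and 20.1% higher, and the median difference was −0.26. At 7 dpi 9 of 64 were lower and 2 higher, beside 12.5% and 17% of all tested genes, with a median of −0.14. The shares called lower were near those of all genes, so the counts of lower genes are no result about the list. At 14 dpi limma called 0 of 65, 2 had an unadjusted p under 0.05, and the methods' test called 0. Tfb2m, the factor that opens the mitochondrial promoter with the polymerase Polrmt, was 14.7 ± 2.46 FPKM in the Uninjected group (SD, n = 3). It was 6.84 ± 3.37 FPKM at 4 dpi and 7.71 ± 1.43 FPKM at 7 dpi (n = 4 each). It fell at both stages (−1.16 ± 0.37 and −0.89 ± 0.20, limma adjusted p 0.0469 and 0.0121). Tfam, which packs mitochondrial DNA, was 9.64 ± 0.125 FPKM in the Uninjected group and 6.67 ± 1.83 FPKM at 4 dpi, which was not called (limma adjusted p 0.112), but it was higher at 14 than at 4 dpi (0.70 ± 0.18, limma adjusted p 0.0121). Polrmt was 7.12 ± 1.01 FPKM in the Uninjected group and 6.22 ± 1.18 FPKM at 4 dpi and was not called.

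Other genes of that list were called singly. Elac2, the enzyme that trims the 3′ end of tRNAs, was 10.5 ± 0.513 FPKM in the Uninjected group and 6.90 ± 0.676 FPKM at 4 dpi (−0.57 ± 0.17, limma adjusted p 0.0343). Perm1 and Esrra, regulators of mitochondrial genes in muscle, were lower at 7 dpi (−1.43 ± 0.46 and −1.06 ± 0.30, limma adjusted p 0.0473 and 0.0307). Tsfm, a translation factor of mitochondria, was higher at 7 dpi (0.63 ± 0.19, limma adjusted p 0.0353). Ppargc1a, a coactivator of mitochondrial biogenesis, was 4.27 ± 1.13 FPKM in the Uninjected group and 3.57 ± 1.63, 3.37 ± 1.20 and 5.64 ± 0.747 FPKM at 4, 7 and 14 dpi, and no stage was called.

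Nuclear subunits of the same respiratory complexes had a median difference of −0.94 at 4 dpi, with 1 of 74 called lower and 2 higher, beside 9.05% and 20.1% of all tested genes. At 7 dpi the median was −0.31, with 0 lower and 2 higher, beside 12.5% and 17% of all tested genes (9 at an unadjusted p under 0.05, 0 by the methods' test). At 14 dpi it was 0.13 with 0 called by either test (5 at an unadjusted p under 0.05). From 4 to 14 dpi 38 of the 74 were called higher and 2 lower, beside 13.3% and 20.5% of all tested genes. Of 77 proteins of the mitochondrial ribosome 1 was lower at 4 dpi and 1 at 7 dpi, under the 9.05% and 12.5% of all tested genes, with medians of −0.32 and −0.03, and at 14 dpi limma and the methods' test called 0 (4 at an unadjusted p under 0.05). Of 20 mitochondrial aminoacyl-tRNA synthetases, which load the tRNAs, 0 were called at 4 dpi (4 at an unadjusted p under 0.05, 0 by the methods' test), 1 was lower at 7 dpi (beside 12.5% of all tested genes) and 0 were called at 14 dpi (1 at an unadjusted p under 0.05, 0 by the methods' test).

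The genes most like the mean of the 13 protein genes over the 15 libraries, by Pearson's r of log2(FPKM + 0.5), were led by Gm10925 (r = 0.991), Gm28437 and Gm28439. These and Gm29216 are among the chromosome 1 copies, and Gm13340 on chromosome 2 matches the whole of mt-Co1 at 97.6% identity, so these 5 of the 10 share sequence with members. The other 5 were Mpc1-ps, Chchd3, Gm15179, Trim54 and 2900076A07Rik, the last at r = 0.960. Chchd3, which encodes a protein of the cristae of the inner mitochondrial membrane, was 111 ± 7.24 FPKM in the Uninjected group (n = 3) and 48.8 ± 29.4, 54.8 ± 17.5 and 88.4 ± 8.87 FPKM at 4, 7 and 14 dpi (n = 4 each). Among the members themselves, r with that mean was 0.956 or more for 12 protein genes and 0.873 for mt-Atp8, 0.892 and 0.915 for mt-Rnr1 and mt-Rnr2, 0.977 for mt-Te and 0.861 for mt-Tp. Each protein gene is itself part of that mean, which raises its r, while the rRNA, tRNA and nuclear genes are not. The r of protein genes therefore cannot be set against those of the others. All these values describe libraries that share depth and scaling and carry no p.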

How the data were processed

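RNA sequencing of 15 TA libraries was read from 3 tables whose Uninjected columns are identical. The authors normalized counts to FPKM before they deposited the tables, labelled with genome build mm10. Which aligner, counting tool and annotation served is not given in the sources used here. Averages, log2 ratios and p-values that the authors deposited were not used. Whole fragments were recovered from the FPKM steps. The library scale behind FPKM was 0.859 to 1.91 times the fragments in genes. Genes that reached 0.5 FPKM in 3 or more of 7 libraries (of 15 between stages) were fitted with limma 3.58.1 (trend and robust) in R 4.3.3 on log2(FPKM + 0.5). P-values were adjusted by the Benjamini-Hochberg method across the tested genes, threshold 0.05. Shares of all tested genes are at that threshold, and none was counted at an unadjusted p. The fit was tested on data simulated after the Maturation Stage and Uninjected libraries only. Noise was independent between genes there, so members that vary together were not covered.

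Sequences and positions are from GENCODE M21 (GRCm38), which holds 52073 of 56748 identifiers. Nuclear copies were searched among its transcripts with blastn 2.17.0. Other steps used Python 3.11.15, numpy 2.4.6, scipy 1.17.1, pandas 2.3.3 and matplotlib 3.10.9. The text names the members, nuclear genes marked as leading in the lists, and the 10 genes most like the protein genes; Gm28661 and Gm28438 were added after their values were seen. The members and lists were chosen with earlier results of these data known. The labels number subjects within groups and name no shared animal, so p-values measure the spread between these samples. The floor for mt-Ti covers counting error only, and the ± values are limma SEs or SDs between libraries. Depth limits the low tRNAs most. Alternatives changed the pseudocount, filter, scaling, test and libraries used.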

Additional observations from a re-analysis of the deposited data

Results flagged for a closer look

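In 72 groups of 4 libraries, 3 held a library far from the other 3 by Dixon's criterion, which chance meets in about 1 in 20 groups. Maturation Stage replicate 2 was the lowest of its group for mt-Rnr1 at 1389.5 FPKM and for mt-Rnr2 at 1369.0 FPKM. Differentiation Stage replicate 1 was the highest of its group for mt-Tc at 704 FPKM.

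Of the 23 members followed through the alternatives, 14 were called higher at 14 than at 4 dpi by limma. Among all tested genes 13.3% were called higher. The difference was above 0 for 33 of all 34 members tested. Without Proliferation Stage replicates 1 and 3 together, 1 of the 34 members was called. On the log2 scale the difference of the 14 was 1.88 for mt-Co1, 1.78 for mt-Cytb and 1.5 for mt-Nd6. It was 1.95 for mt-Nd5, 1.99 for mt-Co2 and 2.16 for mt-Co3. It was 2.39 for mt-Rnr1 and 2.70 for mt-Rnr2. Among tRNAs it was 1.96 for mt-Tp, 2.78 for mt-Te, 2.33 for mt-Tc, 1.62 for mt-Tn, 3.79 for mt-Ty and 1.85 for mt-Tw.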

How the results depend on the processing

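For 23 members followed through the alternatives, 347 of 460 alternative values at 4 dpi, 327 of 437 at 7 dpi and 431 of 437 at 14 dpi kept direction and side of the threshold. Direction turned for mt-Tp at 7 dpi (0.15 with quantile normalization, 0.011 with other genes rescaled to equal sums, 0.22 per fragments in genes), and at 14 dpi without Uninjected replicate 3 for mt-Rnr1 (0.21) and mt-Rnr2 (0.19), without Maturation Stage replicate 2 for mt-Tp (0.15) and mt-Tl2 (0.03), and without Uninjected replicate 1 for mt-Tp (0.11) and mt-Tl2 (0.077). Over single libraries left out, these ran from −0.60 to 0.21 for mt-Rnr1, −0.505 to 0.19 for mt-Rnr2, −0.27 to 0.15 for mt-Tp and −0.41 to 0.077 for mt-Tl2. The causes were not tested.

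The count of 13 at 4 dpi, taken anew over all members tested in each setting, became 1 with no filter, 7 with quantile normalization, 1 by the methods' test, 20 by limma without trend and robust, 24 in the fit of all 15 libraries and 0 to 25 with single libraries left out. Without Proliferation Stage libraries 1 and 3, an alternative chosen after seeing the data, it was 5. The 19 at 7 dpi, mt-Ti included, became 12 with no filter, 5 by the methods' test, 5 in the fit of all 15 libraries and 4 to 24 with single libraries left out. At 14 dpi 0 were called in every alternative. The 0 between the Proliferation and Differentiation Stages became 3 with quantile normalization, 1 with other genes rescaled, 1 per fragments in genes and 0 to 3 with single libraries left out. The 1 between the Differentiation and Maturation Stages became 0 with no filter and 0 to 1 with single libraries left out. The 17 between the Proliferation and Maturation Stages became 10 with no filter, 9 with other genes rescaled, 10 per fragments in genes, 6 to 24 with single libraries left out and 1 without Proliferation Stage libraries 1 and 3.

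As a share of fragments instead of FPKM, the members held 16.1% in place of 32.5% (Uninjected mean), 5.90% in place of 13.3% (Proliferation Stage), 7.99% in place of 17.0% (Differentiation Stage) and 11.3% in place of 22.9% (Maturation Stage).

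Scaling per fragments in genes, also chosen after seeing the data, moved the median of all genes from 0.05 to 0.63 at 4 dpi and from 0.06 to 0.45 at 7 dpi, while the members' median went to −1.78 and −1.17. All-gene calls went from 1192 lower and 2649 higher to 257 and 4263 at 4 dpi, from 1626 and 2209 to 711 and 3806 at 7 dpi, and from 2987 and 1935 to 5808 and 636 between 4 and 14 dpi.

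Replicate numbers did not pair the samples: over 21 same-numbered pairs the correlations of deviations ran from −0.48 to 0.07, and 7 of 42 comparisons had the own number as best match. With the replicate number as a block the counts were 4 at 4 dpi, 13 at 7 dpi, 0 at 14 dpi, 0 between the Proliferation and Differentiation Stages, 1 between the Differentiation and Maturation Stages and 9 between the Proliferation and Maturation Stages.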
